A study of Homo sapiens with 6 samples.

Results

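NOP2 and the NSUN proteins are a family of RNA methyltransferases, and their mRNAs were followed here among the RNAs that came down with a myc-tagged protein from HEK cells. The rows of the count table whose Ensembl IDs map to NOP2, NSUN2, NSUN3, NSUN4, NSUN5 and NSUN6 were taken, which gave 6 of 60671 rows. The family was selected on the difference between the groups in an earlier look at these libraries, where NOP2 stood among the lowest genes, and the other 5 were taken with it. The values of the 6 in this contrast are therefore a description and not a test. HEK is a line derived from human embryonic kidney. Cells were transfected with calcium phosphate, and the RNA precipitated with a myc antibody was depleted of rRNA and sequenced. The 3 libraries named WT.Control are labelled untreated, with SYNJ2BP binding RNA as their source, and the 3 named AAA.mito have RNA bound by the SYNJ2BP AAA mutant. SYNJ2BP is a protein of the outer mitochondrial membrane. The labels do not say which residues AAA stands for, what mito means, or which construct the control cells received. No input RNA was analysed here, so recovery with the protein and the amount of an mRNA in the cell cannot be told apart.

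These enzymes move a methyl group from S-adenosylmethionine to carbon 5 of cytosine in RNA. NOP2 and NSUN5 act on the rRNA of the large cytosolic subunit, and NOP2 is also needed in the nucleolus to build that subunit. NSUN2 modifies many tRNAs and some mRNAs, and NSUN6 modifies the acceptor end of a few tRNAs and sites in mRNAs. NSUN3 and NSUN4 work inside mitochondria, NSUN3 on the anticodon of the methionine tRNA and NSUN4 on the rRNA of the small mitochondrial subunit. MTERF4 is a partner of NSUN4.

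Sequences matter for 2 members, because their reads can be counted for other genes. NOP2 (ENSG00000111641, chromosome 12, 6556863 to 6568691, minus strand, GRCh38) lies 1390 bases downstream of CHD4, a chromatin remodeller, on the same strand. A readthrough gene, ENSG00000285238 (6556886 to 6607367), joins CHD4 exons to NOP2 exons and overlaps 11806 bases of NOP2. Of the 50-base words of the NOP2 transcripts in GENCODE 29, 49.2% also occur in readthrough transcripts. The 30 bases across the join are shown because a read across the join cannot come from an annotated NOP2 transcript. They come from the GENCODE transcript, with the last 15 bases from CHD4 (6570869 to 6570883) in lower case and the first 15 from NOP2 (6567908 to 6567922), which hold the NOP2 start codon, in capitals.
CHD4-NOP2 junction: cctaccccacagcagTACCATGGGGCGCAA
This run was found in 1 readthrough transcript and in 0 NOP2 transcripts.

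NSUN5 (ENSG00000130305, chromosome 7, 73302517 to 73308867, minus strand) has a pair of near-identical pseudogene copies on the same chromosome, NSUN5P1 and NSUN5P2. Over 1267 aligned coding bases NSUN5P1 was 96.1% identical to NSUN5 and NSUN5P2 was 96.4% identical, and the longest runs without a difference were 142 and 213 bases. Of the 50-base words of NSUN5 transcripts, 21.5% also occur in NSUN5P2 and 11.0% in NSUN5P1. The 60 coding bases with the most differences are shown as the stretch where reads separate the genes best (coding bases 831 to 890, chromosome 7, 73304274 to 73304333). Capitals mark the positions at which the copies differ from NSUN5.
NSUN5: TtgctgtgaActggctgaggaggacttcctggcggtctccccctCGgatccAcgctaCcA
NSUN5P1: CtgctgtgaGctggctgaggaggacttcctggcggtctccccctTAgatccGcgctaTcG
NSUN5P2: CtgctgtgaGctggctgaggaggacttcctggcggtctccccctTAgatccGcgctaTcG
Each copy had 7 differences in these bases, and the copies did not differ from each other there. NSUN2, NSUN3, NSUN4 and NSUN6 shared between 0.0176% and 1.24% of their 50-base words with other genes.

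The libraries held between 3287218 and 73331652 counts. Counts were also spread over genes that should be silent, so each gene's density per base of its span was divided by that of 381 olfactory receptor genes, taken as little transcribed; this ratio is called times background. The share of counts on nuclear genes that this background accounts for was 6.61% to 7.48% in both replicate 3 libraries, 37.9% and 55.5% in replicate 1, and 81.8% and 84.4% in replicate 2. Most counts of replicate 2 thus lay at background, and in replicate 1 the mutant library held more background than the control. A gene is called far above background where its average over the 6 libraries, on the log scale, exceeded 8 times. Of genes expressed in HEK cells, KRT18, NEFL, NEFM and VIM were far above background. KRT8, LHX1 and PAX2 were not, with PAX2 at 1.76 times. Of 8 markers of blood, liver and glial cells, 0 were far above background.

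NOP2 was the member that differed most between the groups. Its level was 198, 36.1 and 248 CPM (counts scaled to the same library total) in WT.Control replicates 1, 2 and 3, and 40.01, 17.0 and 40.7 CPM in AAA.mito replicates 1, 2 and 3. The mutant libraries sat in a narrow low range, and the controls split into 2 high libraries and replicate 2, which lay below 2 of the mutant libraries, so the groups overlapped. The means were 161 ± 111 CPM in WT.Control and 32.6 ± 13.5 CPM in AAA.mito (SD, n = 3). Among 19903 protein-coding genes, NOP2 ranked 462, 5313 and 307 by count in the control libraries and 5259, 9123 and 5521 in the mutant ones.

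**Figure D1:**
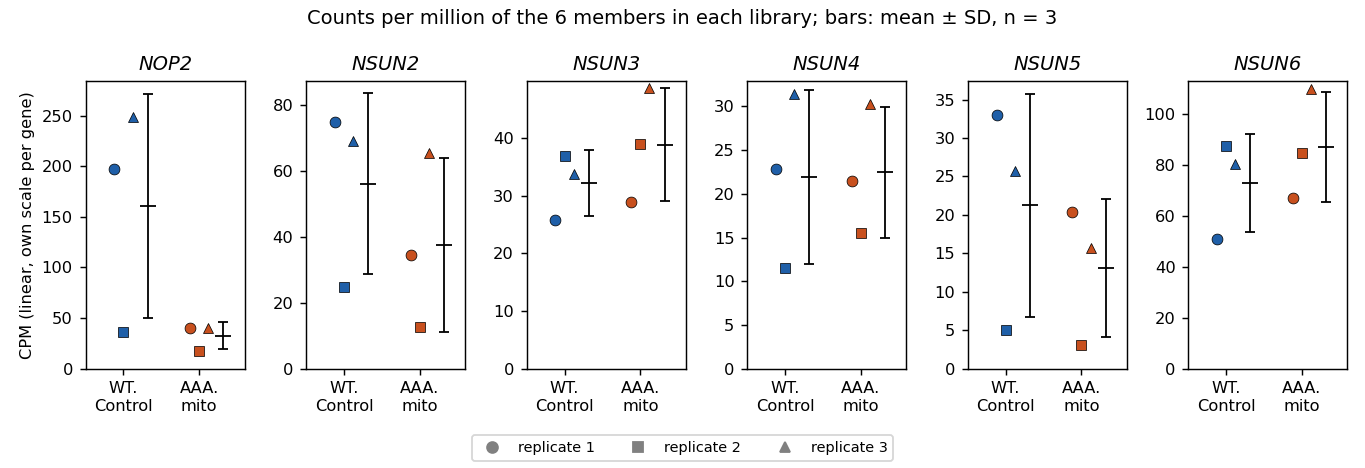
CPM of each member (y axis, linear from 0, own scale per gene) in the WT.Control and AAA.mito libraries (x axis), with symbols for replicate number and bars for mean ± SD, n = 3. NOP2 stood at 198 and 248 CPM in control replicates 1 and 3 and at or below 40.7 CPM in the mutant libraries, while the groups overlapped for all 6 members.

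Within pairs of equal replicate number, NOP2 was lower in the mutant in 3 of 3 pairs. The log2 differences, scaled with TMM factors, were −2.67, −1.05 and −2.74 in pairs 1, 2 and 3, or 6.37-fold, 2.06-fold and 6.68-fold lower. The 95% counting interval of each difference lay below 0, from −2.84 to −2.498, −1.45 to −0.64 and −2.80 to −2.68, and the pair 2 interval did not reach the other 2. In pair 3, the deepest, 0.0509% of all tested genes had a lower difference than NOP2, against 1.28% in pair 1 and 9.53% in pair 2. The median difference of all tested genes was −0.09, −0.02 and −0.13 in pairs 1, 2 and 3. For genes far above background, such as NOP2, it was −0.82, −0.0003 and −0.63, so these shares do not place NOP2 among genes of like level. Against background, NOP2 stood at 86.8, 7.09 and 562 times in WT.Control and at 12.2, 3.55 and 99.4 times in AAA.mito, above it in each library.

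The fit with pairs put NOP2 at −2.22 ± 0.34 on the log2 scale (SE of the fit, 95% interval −2.90 to −1.54). The adjusted p was 0.000173 in the edgeR quasi-likelihood test with Benjamini-Hochberg adjustment. NOP2 was chosen on this contrast, so this p-value is a description and not a test of it. In this fit the SE and interval use a variance that edgeR moderates across genes, and are not the spread of the 3 pair differences. The pair 2 difference of NOP2, −1.05, lay outside the interval. NOP2 was the 1 member of 6 called lower, where 1.4% of 33375 tested genes and 8.54% of 4379 genes far above background were called lower; since the rule used this contrast, nothing is read from the count. Calls in the other direction made up 0.00599% of all tested genes and 0.0457% of those far above background, and calls in either direction 1.41% and 8.59%. The groups overlapped for all 6 members, while 0.446% of tested genes had all mutant libraries below the controls and 0.551% had them above. Without pairs the log2 fold change of NOP2 was −2.58 ± 1.00, and 0 genes passed (0% of those tested), with 25 at an unadjusted p under 0.05. The NOP2 call ended without pair 1 (−2.03, adjusted p = 0.0633) and without pair 3 (−1.94, adjusted p = 0.254), with factors from genes far above background (−1.69, adjusted p = 0.0664) and with background subtracted (−2.17, adjusted p = 0.997); it stayed without pair 2 (−2.54, adjusted p = 0.0144).

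The readthrough and CHD4 moved with NOP2. The readthrough ID had 12392, 1486 and 39454 counts in the control libraries and 1594, 218 and 17912 in the mutant. These equal 94.8% to 100.3% of the summed counts of NOP2 and CHD4 in the same library, so the readthrough count is not a separate measurement. NOP2 had 2966, 399 and 15366 counts in the control and 294, 56 and 2981 in the mutant. CHD4, whose span does not overlap NOP2, had a log2 fold change of −1.39 ± 0.37 in the fit with pairs (adjusted p = 0.0477). That call ended without pairs, in the paired fit without pair 3 and with background subtracted, where 0 genes passed. The NOP2 count per CHD4 count was 0.314, 0.357 and 0.640 in the control and 0.225, 0.322 and 0.200 in the mutant. The ratio was thus lower in the mutant in each pair, most in pair 3. In pair 2 the counting intervals of the log2 differences overlapped, from −1.45 to −0.64 for NOP2 and −1.13 to −0.67 for CHD4. A lower NOP2 relative to CHD4 is therefore not shown by pair 2. How much of the NOP2 count came from readthrough RNA was not tested.

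**Figure D2:**
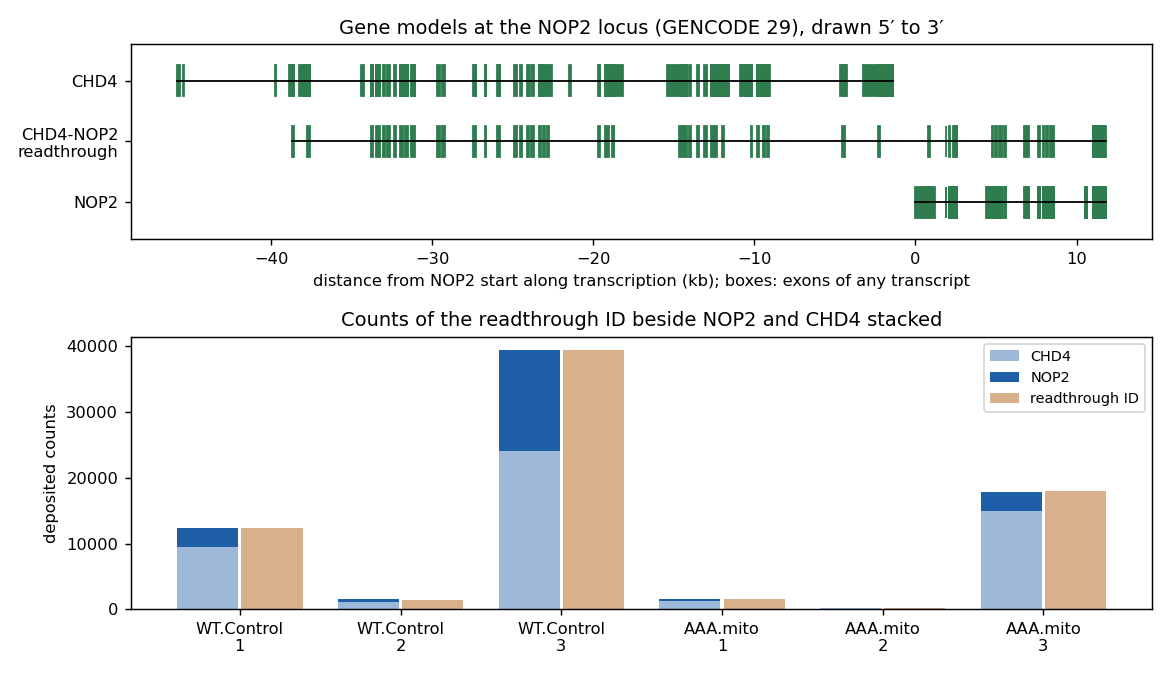
Top, exons (boxes) and spans (lines) of CHD4, the readthrough gene and NOP2, by distance in kb from the NOP2 start along the direction of transcription. Bottom, deposited counts (y axis, linear) per library: CHD4 and NOP2 stacked beside the readthrough ID, whose bar has nearly the height of the stack in each library (94.8% to 100.3%).

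NSUN5, the other enzyme of cytosolic large-subunit rRNA, was lower in the mutant in 3 of 3 pairs by a smaller amount. Its level was 33.0, 4.97 and 25.6 CPM in WT.Control and 20.4, 3.04 and 15.7 CPM in AAA.mito replicates 1, 2 and 3. The replicate 2 library was lowest in both groups, and the groups overlapped. The pair differences were −1.06, −0.66 and −0.84, with a pair 2 counting interval from −1.64 to 0.31 that rests on 55 control and 10 mutant counts. The fit with pairs gave −0.90 ± 0.25 (95% interval −1.42 to −0.38; adjusted p = 0.0652), and −0.32 ± 0.39 with factors from genes far above background (adjusted p = 0.692). Over background, NSUN5 reached 27.0, 1.82 and 108 times in WT.Control and 11.6, 1.18 and 71.4 times in AAA.mito, so pair 2 adds little.

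The copies of NSUN5 give a measure of how far shared reads could reach. NSUN5P2 had 248, 26 and 1415 counts in the control and 86, 0 and 1236 in the mutant, against 496, 55 and 1588 and 150, 10 and 1149 for NSUN5. A count of this size in both makes the split of reads between them uncertain. NSUN5P2 also overlaps 3860 bases of the nuclear pore gene POM121. It differed by −0.86 in pair 1 and by −0.57 in pair 3, on the log2 scale. NSUN5P1 had −0.52 and −0.36 in these pairs, and 4 against 14 counts in pair 2. Neither copy passed the test with pairs (adjusted p = 0.172 for NSUN5P2 and 0.983 for NSUN5P1).

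NSUN2 (ENSG00000037474, chromosome 5, 6599239 to 6633291, minus strand), the broad tRNA enzyme, had 75.0, 24.7 and 69.2 CPM in WT.Control and 34.4, 12.8 and 65.6 CPM in AAA.mito replicates 1, 2 and 3. Replicates 1 and 2 were lower in the mutant and replicate 3 nearly equal, as the pair differences of −1.49, −0.91 and −0.21 show. The pairs therefore disagreed in size: the counting intervals of pair 1 (−1.69 to −1.29) and pair 3 (−0.27 to −0.15) did not meet. The fit with pairs gave −0.86 ± 0.27 (95% interval −1.40 to −0.31; adjusted p = 0.117), and −0.35 ± 0.36 with factors from genes far above background (adjusted p = 0.641). Over background, NSUN2 reached 11.4, 1.69 and 54.4 times in WT.Control and 3.64, 0.926 and 55.7 times in AAA.mito, so mutant replicate 2 held no NSUN2 counts beyond background. The share of all tested genes with a lower difference than NSUN2 was 5.74% in pair 1 and 45.2% in pair 3.

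NSUN6 (ENSG00000241058, chromosome 10, 18545561 to 18659285, minus strand) had 51.0, 87.4 and 80.3 CPM in WT.Control and 67.1, 84.6 and 110 CPM in AAA.mito replicates 1, 2 and 3. Its pair differences were 0.03, −0.01 and 0.32, and the fit with pairs gave 0.12 ± 0.26, with a 95% interval from −0.42 to 0.65. NSUN6 spans 113.7 kb, of which exons make up 3.08%, the smallest exon share of the 6. Background accounted for 43.0% to 56.0% of its counts in replicates 1 and 2 and for 5.29% and 3.57% in control and mutant replicate 3. A difference between the groups was not detectable for NSUN6. The interval of the fit with pairs still allows a change of up to 0.65 on the log2 scale. With factors from genes far above background that fit gave 0.61 ± 0.40 (edgeR, adjusted p = 0.55), so this limit depends on the scaling.

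The mitochondrial enzymes NSUN3 and NSUN4 did not differ between the groups beyond their spread. NSUN3 (ENSG00000178694, chromosome 3, 94062916 to 94128545, plus strand) had 25.8, 36.9 and 33.8 CPM in WT.Control and 28.99, 38.9 and 48.7 CPM in AAA.mito. Its pair differences were −0.20, 0.11 and 0.40, and the fit with pairs gave 0.11 ± 0.24 (95% interval −0.37 to 0.59). NSUN4 (ENSG00000117481, chromosome 1, 46340177 to 46365152, plus strand) had 22.9, 11.5 and 31.4 CPM in the control and 21.5, 15.5 and 30.3 CPM in the mutant. Its pairs pointed both ways, at −0.46, 0.47 and −0.18, and the fit with pairs gave −0.09 ± 0.24 (95% interval −0.59 to 0.40). With factors from genes far above background the paired edgeR fit gave 0.60 ± 0.35 for NSUN3 (adjusted p = 0.543). It gave 0.43 ± 0.35 for NSUN4 (adjusted p = 0.581). In replicate 2 both genes lay between 1.07 and 1.53 times background. MTERF4, the partner of NSUN4, had −0.75 ± 0.25 in the fit with pairs (adjusted p = 0.144), and its span overlaps SNED1.

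**Figure D3:**
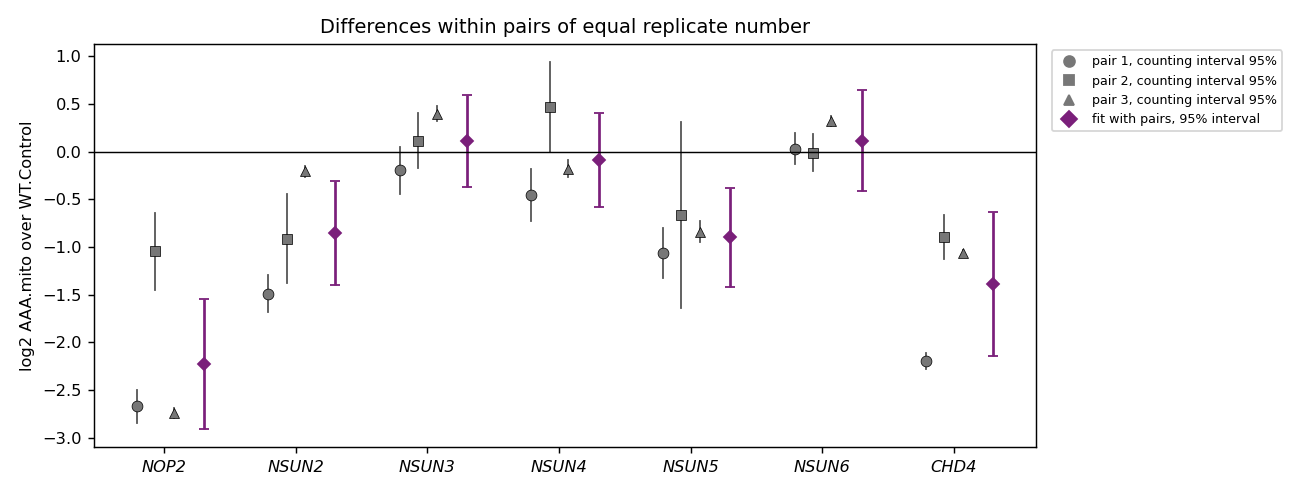
Log2 difference of AAA.mito over WT.Control (y axis) within each pair of equal replicate number, with 95% counting intervals, and the fit with pairs with its 95% interval, for the 6 members and CHD4. NOP2 lay lowest (−2.67, −1.05 and −2.74), NSUN2 and NSUN5 below 0 in each pair, and NSUN3, NSUN4 and NSUN6 on both sides of 0.

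Across the family, 3 of 6 members (NOP2, NSUN2 and NSUN5) were lower in the mutant in all 3 pairs, where 18.2% of all tested genes and 39.7% of genes far above background were. The median log2 fold change of the 6 in the fit with pairs was −0.47. The same median was −0.08 for the tested genes as a whole and −0.51 for those far above background. NOP2 and NSUN5 were the 2 members far above background (33.2 and 12.9 times on average), NSUN2 lay just under the limit at 7.60 times, and NSUN4, NSUN6 and NSUN3 stood at 5.50, 4.52 and 3.49 times. The remaining family gene of the annotation, NSUN7, had between 0.456 and 0.734 times background in the 6 libraries, so NSUN7 RNA was not detectable over background.

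**Figure D4:**
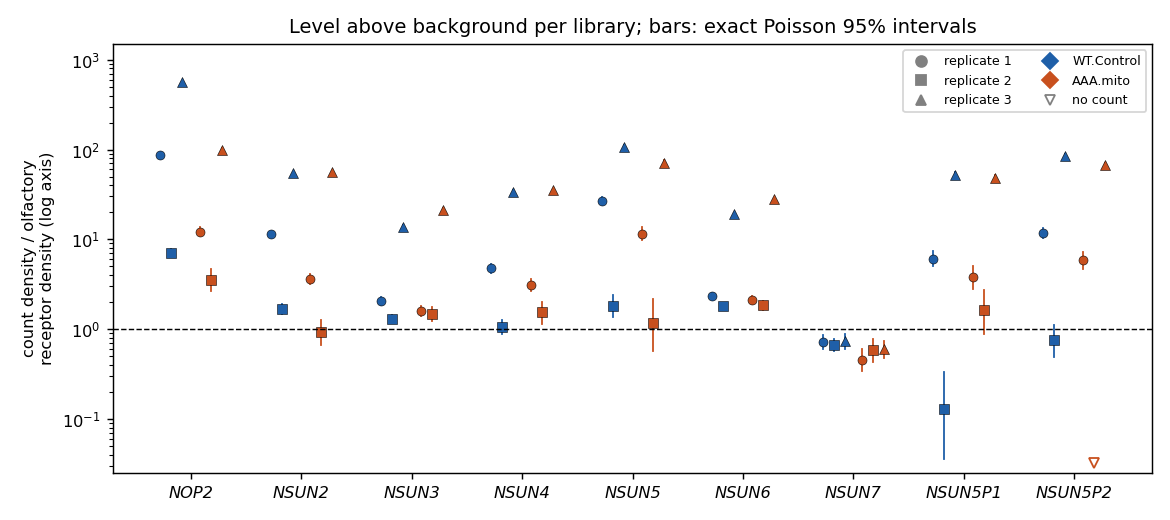
Count density of each family gene divided by that of olfactory receptor genes (y axis, log scale) in each library, with exact Poisson 95% intervals of the gene's count; the dashed line marks a ratio of 1. Replicate 3 libraries (triangles) lay highest for each member, and replicate 2 (squares) lay near 1 for all members but NOP2. In replicate 2, NSUN5P1 had 0.130 times in WT.Control and 1.63 in AAA.mito, and NSUN5P2 had 0.758 and 0 (no count). NSUN7 lay between 0.456 and 0.734 in all libraries.

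The order of the members by level depended on the length used. Per kb of exon, NSUN6 stood first in the 3 mutant libraries, at 19.2, 24.2 and 31.5 CPM per kb. NOP2 stood first in control replicates 1 and 3, at 42.2 and 53.0 CPM per kb. In AAA.mito replicate 3, the deepest library, NSUN6 was followed by NSUN2 at 11.9 CPM per kb, NOP2 at 8.67, NSUN3 at 8.64, NSUN5 at 4.59 and NSUN4 at 3.58. In WT.Control replicate 3 the order was NOP2 at 53.0, NSUN6 at 23.0, NSUN2 at 12.6, NSUN5 at 7.51, NSUN3 at 5.996 and NSUN4 at 3.70. NOP2 thus held first place in the deepest control library and rank 3 in the deepest mutant one, and NSUN4 was last in both. Taking away the expected background left these 2 orders as they were, but moved NSUN6 from rank 2 to rank 4 in WT.Control replicate 1. Per kb of gene span, with all libraries averaged, NOP2 ranked 1 and NSUN6 ranked 5, against 2 and 1 per kb of exon. The latter became 1 and 2 without WT.Control replicate 2, AAA.mito replicate 2 or AAA.mito replicate 3. The WT.Control means per kb of exon were 34.3 ± 23.6 CPM for NOP2, 20.8 ± 5.52 for NSUN6, 10.2 ± 4.997 for NSUN2, 6.22 ± 4.26 for NSUN5, 5.70 ± 1.02 for NSUN3 and 2.59 ± 1.18 for NSUN4 (SD, n = 3). Of these neighbours, NSUN6 and NSUN2 had ranges that did not overlap, and neither did NSUN3 and NSUN4, but with background taken away both pairs overlapped. NSUN6 then ranged from 8.31 to 21.7 and NSUN2 from 1.82 to 12.4 CPM per kb. In AAA.mito, NSUN6 had 24.9 ± 6.17 CPM per kb of exon, above the range of the other 5. With background taken away it had 10.1, 11.0 and 30.3, first in each mutant library, while its range overlapped that of NSUN2, which had 11.7 in replicate 3. This step takes the background expected over the whole span and then divides by exon length. Whether the counts cover exons or the whole span was not tested, and the place of NSUN6 depends on it, since NSUN6 ranked 5 per kb of span. The blood marker PTPRC had a WT.Control mean of 3.66 CPM per kb of exon and 0.28 per kb of span. Against background, which is taken per base of span, PTPRC lay at 0.82 to 1.44 times. Readthrough exons overlap 2550 of the 4687 NOP2 exon bases, and the readthrough count was 94.8% to 100.3% of NOP2 and CHD4 summed. The mutant means of NOP2, NSUN3 and NSUN2 per kb of exon, with background left in, lay together at 6.95 ± 2.87, 6.90 ± 1.75 and 6.83 ± 4.82.

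The genes with profiles over the 6 libraries most like that of NOP2 are given as a description. NOP2 was chosen on this contrast, and few candidates were members, so neighbours outside the family say nothing about the family. By Euclidean distance of centred log2 CPM among 15751 protein-coding genes, the nearest was MFN2, a GTPase of mitochondrial fusion, at 0.43. Also near were ENSG00000272410 (0.58), ESYT1, a membrane tether (0.65), and UBQLN4, a ubiquitin shuttle (0.68). ENSG00000272410 overlaps 31847 bases of TATDN2 and ESYT1 overlaps 9265 bases of ZC3H10, both on the same strand. Within the family, NOP2 was nearest to NSUN5 (1.99) and NSUN2 (2.01) and farthest from NSUN6 (3.90), while NSUN3 and NSUN6 were nearest to each other (0.23). Likeness of profile includes depth and background, which the libraries share.

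Other genes of RNA modification were lower in part. Of 131 tested genes in 6 lists, 10 fell and 0 rose in the fit with pairs, which is 7.63%, beside 1.4% of all tested genes; 0 passed without pairs (0% of all tested), where 0 of the 131 also had an unadjusted p under 0.05 in edgeR. All 10 belonged to the 66 list genes far above background, or 15.2% of these, beside 8.54% of all genes far above background. The median over the 131 was −0.47, near that of genes far above background (−0.51). Without pair 2, 2 list genes passed; without pair 1 or pair 3, 0 passed, and 0 passed in the paired fit with factors from genes far above background or with background subtracted.

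Among 17 genes of cytosolic rRNA modification, 2 fell (11.8%), beside 1.4% of all tested genes and 8.54% of those far above background. These were RRP8, a nucleolar rRNA methyltransferase (−1.05 ± 0.27, adjusted p = 0.0401), and TRMT112, the activating partner of several methyltransferases (−0.99 ± 0.26, adjusted p = 0.0414). In pair 2, RRP8 went the other way, at 0.13. Among 42 assembly factors of the large subunit, where NOP2 also acts, 4 fell (9.52%), and 29 of the 42 were far above background. The share called was thus near the 8.54% of all genes far above background. These were the helicase DDX56 (−1.30 ± 0.26), NOC2L (−1.29 ± 0.29), the methyltransferase FTSJ3 (−1.03 ± 0.26) and PPAN (−0.98 ± 0.26), each lower in 3 of 3 pairs. PPAN lies wholly within the readthrough gene PPAN-P2RY11, FTSJ3 overlaps 2861 bases of PSMC5 and NOC2L 378 bases of SAMD11, so their counts could hold reads of these genes. The same holds for TRMT112 (ESRRA), and below for MRM3 (GLOD4) and RBM15B (DCAF1). The medians of these lists were both −0.56, against −0.51 for genes far above background.

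Among 22 genes that modify mitochondrial RNA, MRM3, a methyltransferase of mitochondrial rRNA (−1.18 ± 0.25, adjusted p = 0.00855), and HSD17B10, a subunit of mitochondrial ribonuclease P and its tRNA methyltransferase (−0.97 ± 0.26, adjusted p = 0.0478), fell. Of 16 genes of N6-methyladenosine and cap methylation, RBM15B, an adaptor of the adenosine methyltransferase (−1.05 ± 0.27, adjusted p = 0.0322), and CMTR1, a cap methyltransferase (−1.30 ± 0.34, adjusted p = 0.0424), fell. The called genes made up 9.09% of the mitochondrial list and 12.5% of the list of N6-methyladenosine and cap methylation. Over all tested genes the share was 1.4%, and over those far above background 8.54%. CMTR1 did not share a direction across pairs, at −2.10, 0.04 and −1.70. Of 25 cytosolic tRNA methyltransferases and partners none passed with pairs, and the list median was −0.12. TRMT1 (−0.88, adjusted p = 0.0563) and WDR6 (−0.89, adjusted p = 0.108) had the smallest p there. Of 9 partners, readers and erasers of 5-methylcytosine none passed either. ALYREF, which reads this mark and exports mRNA, had −0.81 ± 0.26 (adjusted p = 0.122). With pairs, 7 of the 25 and 3 of the 9 had an unadjusted edgeR p under 0.05. So did 3347 of all 33375 tested genes.

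**Figure D5:**
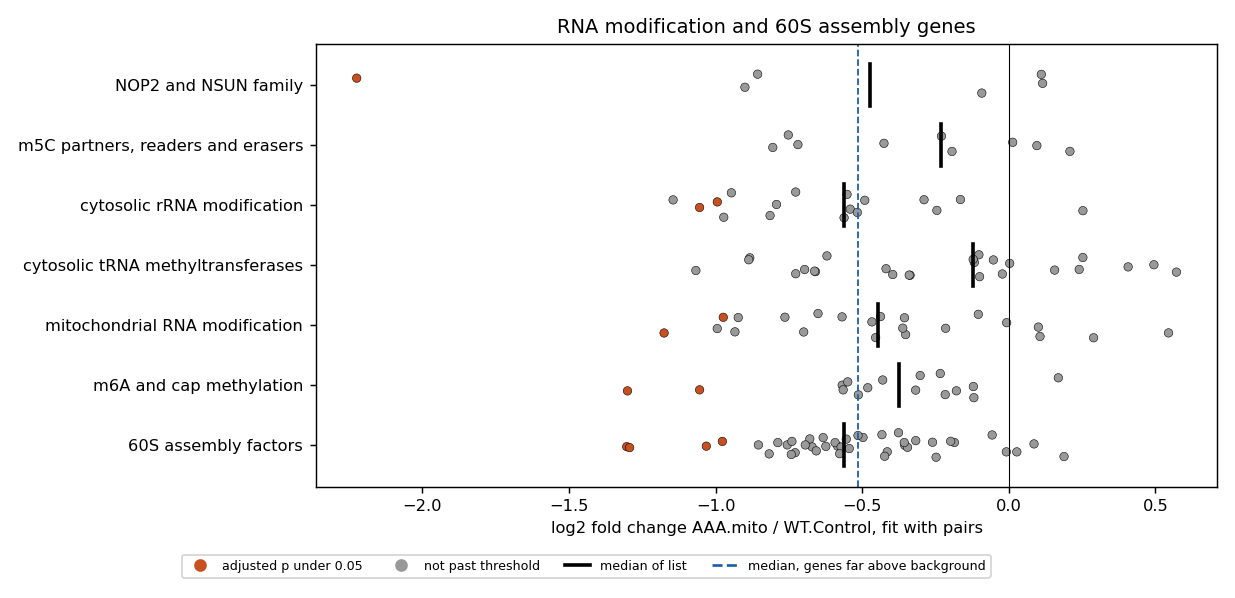
Log2 fold change in the fit with pairs (x axis) of the family and of each gene in 6 lists (rows); filled orange points passed an adjusted p of 0.05, black bars are list medians and the dashed line is the median of genes far above background (−0.51). NOP2, which was chosen for its low value in this contrast, lay at −2.22, below each of the 131 list genes. The 10 called list genes ranged from −1.30 to −0.97.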

How the data were processed

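The deposited file holds raw counts per Ensembl gene, not normalized by the authors, in 6 columns. STAR 2.7.6a, FastQC and featureCounts were used, per the submitters' processing notes; the sources used here do not state build, annotation, strand or overlap settings. Symbols came from a gene table (60401 IDs matched); positions, exons and transcripts came from GENCODE 29 on GRCh38 (58453 IDs). Genes were tested with edgeR 4.0.16 (R 4.3.3): filterByExpr, TMM, quasi-likelihood F test, Benjamini-Hochberg adjustment, threshold 0.05. The fit had no pairs by plan. Deviations from group means correlated at 0.41, 0.76 and 0.90 in libraries of equal number, and at −0.81 to 0.27 in those of unlike number. Pairs were therefore added, and the pairing comes from this check, not from the labels. Background share also went with replicate number, and its part in these correlations was not tested. Counting intervals cover counting error only. No label calls the replicates separate cultures: p-values then measure only how these libraries vary, which may be technical. CPM use total counts; log2 CPM use a prior count of 1. Members and lists were chosen with earlier results of these data known. Named beside members were overlapping genes, the 5 genes nearest to NOP2 above a mean log2 CPM of 2, and per list up to 5 called genes or 2 with the smallest p; CHD4 was added after its values were seen. Some genes that these rules name are not reported here. Scripts were tested on simulated data. DESeq2 1.42.0 and limma 3.58.1 served as alternatives.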

Additional observations from a re-analysis of the deposited data

How the results depend on the processing

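With the replicate number as a block (pairs), 469 genes passed, against 0 without it; the count was 5 with factors from genes far above background and 312 with upper quartile factors, a setting added after seeing the data. Leaving out 1 pair gave 0 to 259 genes (37 without pair 1), and 0 passed with pairs and background subtracted (405 at an unadjusted p under 0.05). Without pairs, 0 passed under each alternative, with 2 (limma-voom), 70 (DESeq2) and up to 627 (no low count filter) at an unadjusted p under 0.05. For RNA modification genes the paired count was 10, 4 with upper quartile factors and 2 without pair 2. The cause of these changes was not tested. The log2 fold change of NOP2 was below 0 in all 19 alternatives (−3.11 to −1.64), and so was that of NSUN5 (−1.44 to −0.24). NSUN2 was below 0 in 17 (−1.75 to 0.03), the exceptions being the fits without WT.Control replicate 3 and without AAA.mito replicate 2. NSUN4 was below 0 in 9, NSUN3 in 2 and NSUN6 in 3, so their direction changed with scaling or with the library left out. Factors from genes far above background moved the median of all genes from −0.08 to 0.42 with pairs. Background limits pair 2, where the members other than NOP2 lay between 0.926 and 1.83 times background.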

Other observations

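The members differ in how much of their span is exon. Their pair 3 differences were −0.84 for NSUN5 (53.8% exon), −2.74 for NOP2 (39.6%), −0.18 for NSUN4 (33.9%), −0.21 for NSUN2 (16.2%), 0.40 for NSUN3 (8.59%) and 0.32 for NSUN6 (3.08%). Over 3043 protein-coding genes far above background, the median pair 3 difference was −0.38 for 198 genes with under 10% exon and −0.83 for 1338 genes with at least 40% exon, while the medians were −0.77 and −0.88 in pair 1 and went the other way, −0.04 and 0.05, in pair 2. Spearman's rho between exon share and the paired log2 fold change was −0.15 across these genes, which are not independent and share their libraries. The average level above background also differed between these classes, at 3.35 and 3.95 on the log2 scale, and its part in the difference was not tested.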
